A study of Drosophila melanogaster with 6 samples.

Results

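PIWI-clade Argonaute genes (piwi, aub and AGO3) and Nxf3, an export factor for piRNA precursors, were lower in Drosophila SL2 cells given double-stranded RNA (dsRNA) against ISWI than in cells given dsRNA against GST. They are 4 of the 11982 genes that the platform annotation pairs with a probe set of 1 symbol, and they were taken as every probe set assigned to exactly one of these symbols. This gave 5 probe sets of 18952. These genes were chosen because of their difference between the same arrays, so their values are a description and no test is given for them.

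SL2 cells are a line from late embryos with features of haemocytes, the insect blood cells. ISWI is the ATPase that drives a family of nucleosome remodelling complexes, and its gene symbol in the annotation is Iswi. Both groups were exposed to 10 micrograms of dsRNA in medium without serum for 1 hour, had serum-containing medium added and were harvested on day 7 without passaging. The GST group (3 arrays) received dsRNA to GST, the control target, and the ISWI group (3 arrays) dsRNA to ISWI, with 3 biological replicates each and biotin-labelled total RNA on 1 array per replicate. Untreated cells were not analysed here, so both groups share the exposure to dsRNA. Cultures were measured in bulk, where fewer cells with a transcript and less of it per cell cannot be told apart.

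PIWI-clade Argonautes bind piRNAs, small RNAs that in fly gonads guide the silencing of transposable elements. Piwi acts in the nucleus, where it directs transcriptional silencing. Aub (Aubergine) and AGO3 act in the cytoplasm, where they cleave complementary transcripts in turn and so amplify piRNAs in the ping-pong cycle. Nxf3 carries precursor transcripts of germline piRNA clusters out of the nucleus. The other Argonaute genes, AGO1 of the microRNA pathway and AGO2 of the small interfering RNA pathway, were not analysed here.

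The piwi probe set, on chromosome arm 2L, read 10.33, 10.51 and 10.56 on GST replicates 1 to 3 and 8.09, 8.35 and 8.17 on ISWI replicates 1 to 3 (deposited log2 values). Every ISWI array lay below every GST array, with a gap of 1.98 between the nearest arrays. The group means were 10.47 ± 0.12 and 8.20 ± 0.13 (SD, n = 3 each), a log2 difference of -2.26 with a standard error of 0.09. On the unlogged scale the ISWI group held 20.9% of the GST value.

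For aub, also on 2L, the values were 10.40, 10.54 and 10.36 on the GST arrays and 8.71, 8.83 and 8.82 on the ISWI arrays. The groups were apart by 1.53, and the spread within each was the smallest of the 4 genes. The means of 10.44 ± 0.09 and 8.79 ± 0.07 (SD, n = 3) differed by -1.65 (standard error 0.07), leaving 31.9% of the GST value.

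AGO3, on 3L, read 8.30, 8.64 and 8.31 in the GST group and 6.12, 6.77 and 6.36 in the ISWI group. The ISWI arrays were again all below the GST arrays, and they spread over a wider range than the GST arrays did. The means were 8.41 ± 0.19 and 6.42 ± 0.33 (SD, n = 3), a difference of -1.999 (standard error 0.17), with 25% of the GST value left. ISWI replicate 2, the array with the smallest AGO3 difference, also had the largest excess of 3' over 5' signal for the eIF-4a control transcript, a sign of RNA quality (a log2 excess of 2.26, against 1.69 to 1.91 on the other arrays). For the actin control transcript the excess was 1.06 there and 0.40 to 0.55 on the other arrays. The same array had the smallest difference for piwi (-2.11 against the GST mean) and for aub (-1.60, beside -1.61 on replicate 3). Without that array the AGO3 difference was -2.18, and the part of RNA quality in it was not tested.

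The Nxf3 probe set with signal, on 3L, read 7.99, 7.97 and 6.83 on the GST arrays and 5.39, 5.04 and 5.0005 on the ISWI arrays. GST replicate 3 stood below the other GST arrays, which made the GST spread the widest of the 4 genes, but it was still 1.44 above the nearest ISWI array. The means were 7.60 ± 0.67 and 5.14 ± 0.21 (SD, n = 3). The difference was -2.45 (standard error 0.30) with all arrays and -2.84 without GST replicate 3, and 18.3% of the GST value was left with all arrays.

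A second Nxf3 probe set was at 2.56 to 2.64 on every array, below the log2 value of 4 used here as the level of detection. It differed by 0.00 between the groups and carries no information on the change of the gene. A further probe set is assigned to both Nxf3 and ssp2 and thus is not a member. It read 7.27, 7.34 and 7.57 on the GST arrays and 7.24, 6.47 and 7.31 on the ISWI arrays. These groups overlapped, at means of 7.39 ± 0.16 and 7.01 ± 0.47 (SD, n = 3). The Release 6 gene table gives Nxf3 and ssp2 the same interval, so probe sets of this locus have to be read by gene. The probe set of ssp2 alone was at 9.62 ± 0.05 and 9.49 ± 0.14, a log2 difference of -0.12 that was not called (limma adjusted p = 0.258). The lower Nxf3 value therefore rests on 1 probe set.

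**Figure D1:**
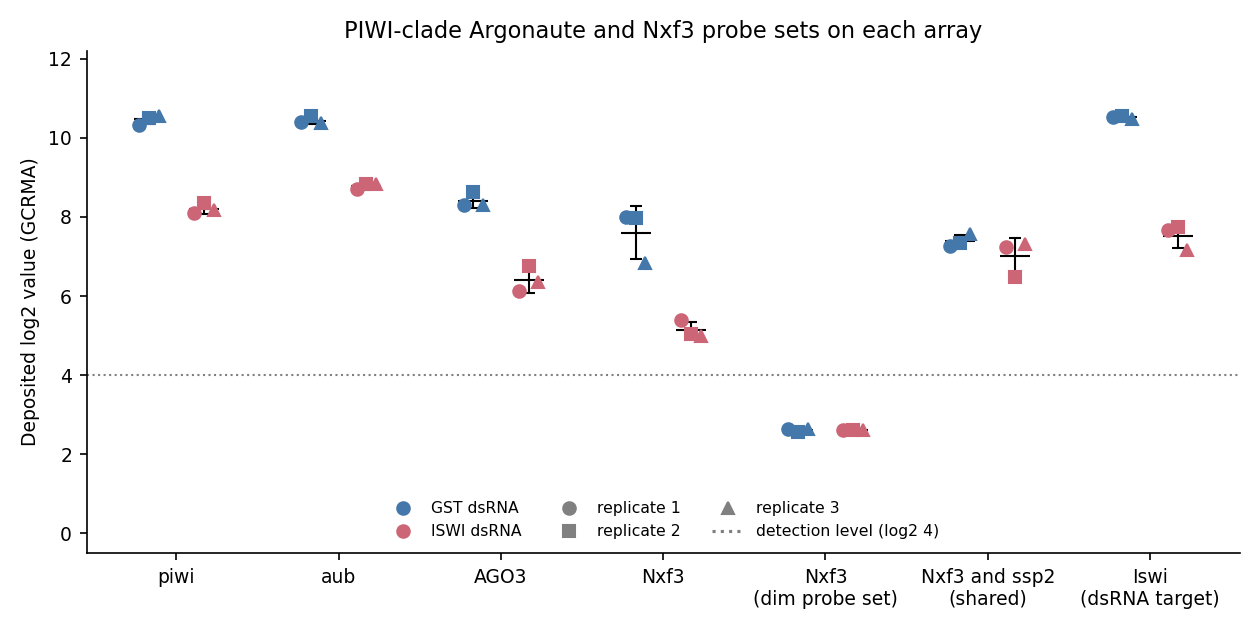
Deposited log2 value (y axis) of each probe set of piwi, aub, AGO3 and Nxf3, of the probe set shared by Nxf3 and ssp2, and of Iswi (x axis), on the 3 GST (blue) and 3 ISWI (red) arrays, with replicate by symbol, group mean and SD in black and the level of 4 dotted. The ISWI arrays lie below the GST arrays for piwi, aub, AGO3, 1 probe set of Nxf3 and Iswi, and the other Nxf3 probe set stays near 2.6 throughout.

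For genes outside these 4, a gene was called when its brightest tested probe set had a limma p under 0.05 after Benjamini-Hochberg correction over the 7390 probe sets that lay above 4 on at least 3 of the 6 arrays. Of the 5 probe sets of the 4 genes, 4 were bright enough to be tested. Of the 6011 genes tested, 41.1% were called, 17.6% lower and 23.4% higher. In all 4 genes the ISWI arrays were wholly below the GST arrays, beside 23.7% of the genes tested. Since the genes were chosen on this difference, this count only describes them. Ordered by the size of the fitted fall among the 6011 genes, Nxf3 was number 8, piwi 11, AGO3 17 and aub 27. The median difference was -2.13 over the 4 genes and 0.03 over all tested genes.

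**Figure D2:**
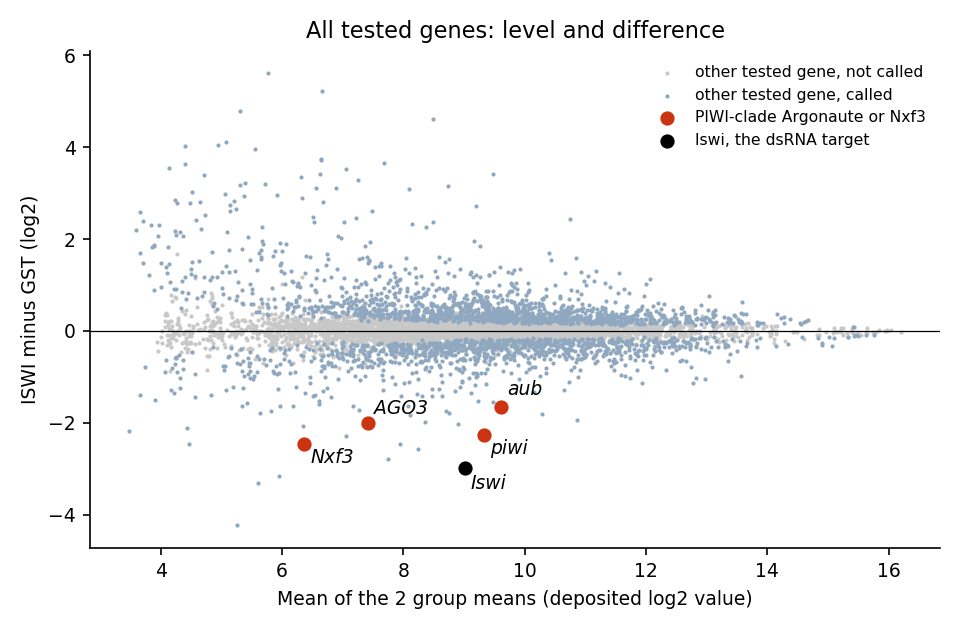
Log2 difference, ISWI minus GST (y axis), against the mean of the 2 group means (x axis, deposited log2 value) for 6011 tested genes, with called genes in blue grey, the 4 genes in red and Iswi in black. Nxf3, piwi, AGO3 and aub lie between -2.45 and -1.65, below most genes of like level.

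The order of the differences, from the largest, was Nxf3, piwi, AGO3 and aub, but neighbours in it overlapped array by array. Relative to the GST mean of the same gene, the ISWI arrays stood at -2.21 to -2.60 for Nxf3 and at -2.11 to -2.37 for piwi. They stood at -1.65 to -2.30 for AGO3 and at -1.60 to -1.73 for aub. Adjacent genes in the order thus overlapped, whereas aub overlapped neither piwi nor Nxf3. These ranges leave out the spread of the GST arrays, which was widest for Nxf3.

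Single ISWI arrays kept a similar order for the 3 Argonaute genes. ISWI replicate 1 was the lowest and replicate 2 the highest for AGO3 (-2.30 and -1.65 against the GST mean) and for piwi (-2.37 and -2.11). For aub, replicate 1 was the lowest at -1.73, with -1.60 and -1.61 on the others. Nxf3 ran otherwise, with its smallest difference on replicate 1 (-2.21) and -2.55 and -2.60 on replicates 2 and 3.

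The depleted transcript itself, Iswi, read 10.53, 10.54 and 10.47 on the GST arrays and 7.66, 7.74 and 7.16 on the ISWI arrays. Its log2 difference was -2.99 (standard error 0.14, limma adjusted p = 7.61e-06), and the two-sided exact permutation test gave 0.1, the smallest p that 3 against 3 allows. The array with the lowest Iswi value was ISWI replicate 3 (-3.35 against the GST mean). That array had the lowest Nxf3 value, but it had the lowest value of none of piwi, aub and AGO3.

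Genes whose 6-array profile was nearest to each of the 4 were found by the root-mean-square difference between profiles set relative to the GST mean of each gene. For piwi these were CG10581 (0.16 log2 units), veil (0.16), Ugt37D1 (0.17), encoding a UDP-glycosyltransferase, and CG4872 (0.19). For aub they were CG5568 (0.10), Bdp1 (0.11), encoding a subunit of the RNA polymerase III factor TFIIIB, the beta-tubulin gene betaTub97EF (0.13) and fend (0.14). For AGO3 they were CG32582 (0.12), the glutathione S-transferase gene GstE13 (0.22), betaTub97EF (0.22) and the cyclophilin gene Cyp40 (0.23).

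The nearest profiles to Nxf3 lay farther off. They were CG4872 (0.35), the cell adhesion gene Nrg (0.40), CG4210 (0.44) and Ugt37D1 (0.48). The distance takes in the GST arrays, where Nxf3 stood at 0.40, 0.37 and -0.77 against its own GST mean. Every distance to Nxf3 thus also holds this control spread, and does not measure the ISWI difference alone. CG4872 and Nxf3 both differed by -2.45 between the groups. On all ISWI arrays veil and CG4872 were at or below 4, so the size of their own differences is cut short. Among the 4 genes themselves piwi and AGO3 were nearest to each other (0.24), then AGO3 and aub (0.30), and Nxf3 and aub were farthest apart (0.69). Other tested genes lay nearer to each of them. In order of nearness to aub, AGO3 was number 38, piwi 69 and Nxf3 192. From piwi, AGO3 was number 8, aub 17 and Nxf3 21. From AGO3, piwi was number 6, aub 15 and Nxf3 47, and from Nxf3, piwi was number 6, AGO3 11 and aub 20. GstE13 was at 9.91 in the GST group and 7.89 in the ISWI group. GST dsRNA was the control treatment, and whether it altered GstE13 in the control cells was not tested.

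In gene order piwi and aub are close neighbours on 2L, with 2 protein-coding genes between them. Of these, CG12253 fell slightly, from 6.57 ± 0.02 to 6.22 ± 0.18 (SD, n = 3), a log2 difference of -0.34 (limma adjusted p = 0.04). The other, TTLL4A, an annotated tubulin-ligase-like gene whose interval overlaps the end of aub, read 6.46, 6.37 and 6.54 on the GST arrays and 6.18, 6.47 and 6.20 on the ISWI arrays. Its groups overlapped and its difference of -0.17 was not called (adjusted p = 0.249). SCAR, an actin regulator gene whose interval overlaps that of piwi on its other side, differed by 0.06 (adjusted p = 0.42). The large differences in this stretch were thus at piwi and aub, and the genes between and beside them differed by -0.34 to 0.17 where tested.

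Over the 5 protein-coding genes on each side of the 4 genes, 20 neighbours were tested, of which 5 were called lower and 2 higher, beside 17.6% lower and 23.4% higher of all tested genes. Next to AGO3, alpha-Cat, the gene of the adhesion protein alpha-catenin, fell by 0.22 (adjusted p = 0.0101), Spf30, a splicing factor gene, by 0.28 (0.0388) and CG17698 by 0.47 (0.0415). ND-MLRQ, for a subunit of mitochondrial complex I, rose by 0.18 (0.0301). Next to Nxf3, the dynactin subunit gene DCTN1-p150 fell by 0.54 (0.00742) and Rgl, for a Ral exchange factor, rose by 0.40 (0.0479). The tested neighbours lay between -0.54 and 0.40, and the 4 genes between -2.45 and -1.65.

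Called neighbours fell to 3 without GST replicate 1, 2 without GST replicate 2, 3 without GST replicate 3 and 4 without any 1 of the ISWI arrays. The calls of alpha-Cat and DCTN1-p150 were made under all 13 alternative settings, and those of the other 5 were lost under 6 to 10 of them.

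**Figure D3:**
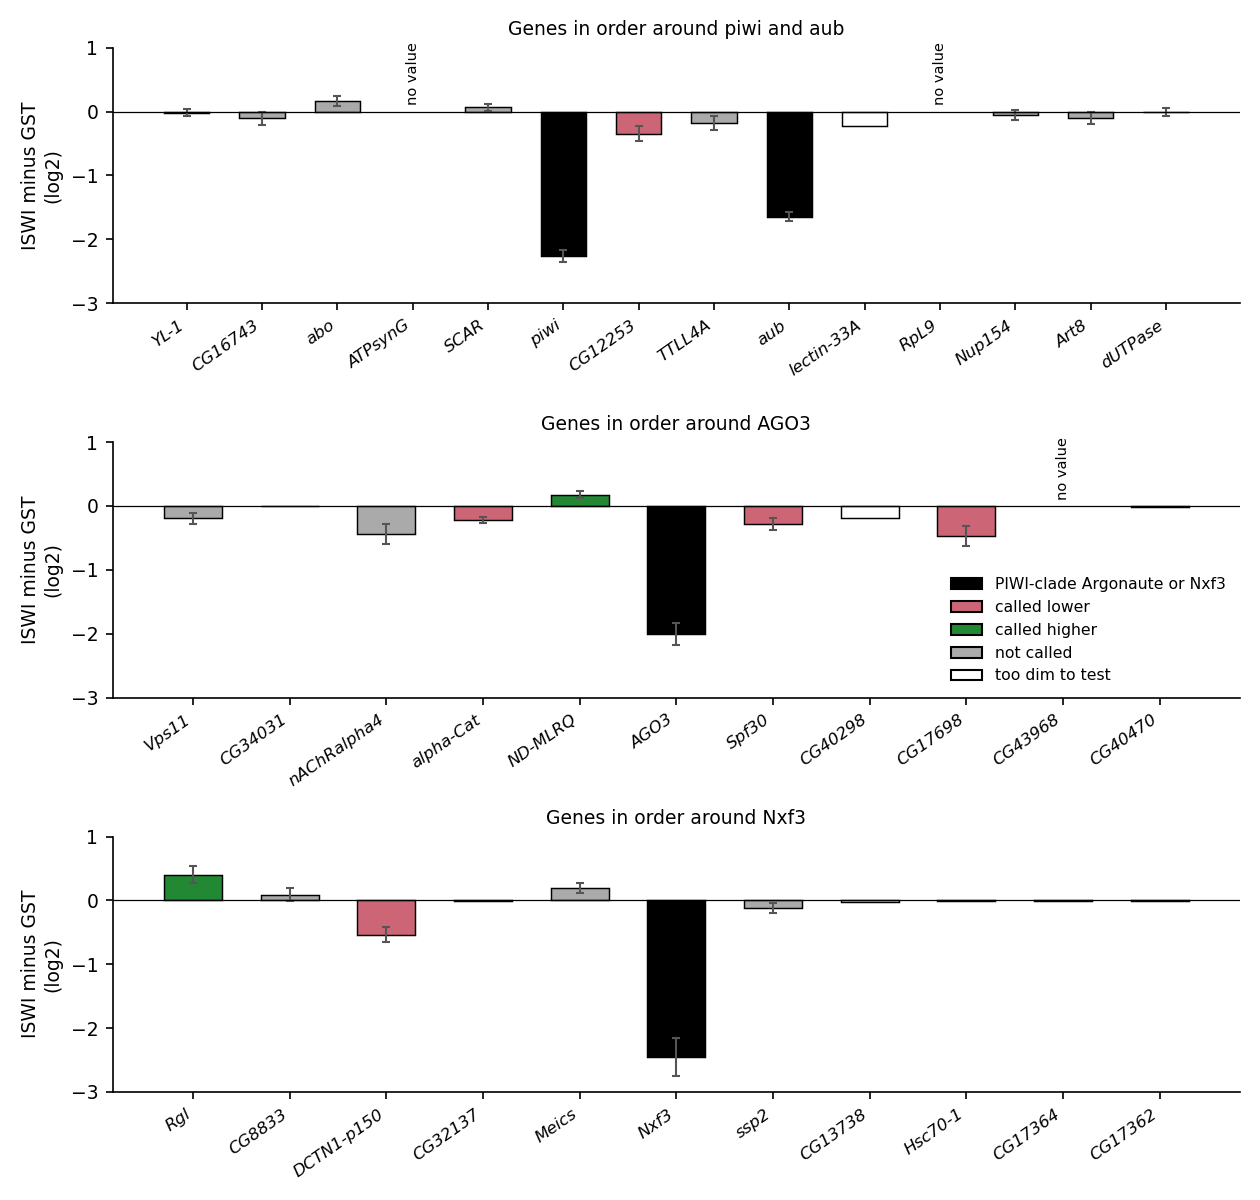
Log2 difference, ISWI minus GST (y axis, bars from 0 with the standard error of the fit), for genes in chromosomal order (x axis, rank only) around piwi and aub, AGO3 and Nxf3, with the 4 genes in black and neighbours coloured by their limma call. Black bars reach -1.65 to -2.45, and the tested neighbours lie between -0.54 and 0.40.

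The relative of Nxf3 that could be measured, nxf2, fell as Nxf3 did, and the NXF partner gene Nxt1 rose. The product of nxf2 acts with Piwi in transcriptional silencing in the nucleus. The gene read 7.37, 7.61 and 7.64 on the GST arrays and 6.64, 6.67 and 6.88 on the ISWI arrays, with no overlap. It fell by 0.81 (standard error 0.11, limma adjusted p = 0.000985), to 57% of the GST value. Nxt1, the small partner of NXF proteins, read 11.49, 11.57 and 11.59 on the GST arrays and 11.72, 11.75 and 11.89 on the ISWI arrays. It rose by 0.24 (standard error 0.06, adjusted p = 0.0141), a call that was lost without GST replicate 1 (0.21, adjusted p = 0.059). The probe set of nxf4 was near 2.5 on every array, and sbr, the general mRNA export factor gene, was not analysed here.

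Other genes of the piRNA pathway moved less than the 4 genes and in both directions. Of 54 listed genes 46 were tested, of which 11 fell and 4 rose. That is 23.9% lower and 8.7% higher, beside 17.6% and 23.4% of all tested genes. Their median log2 difference was -0.02, against 0.03 over all tested genes. Their differences ran from -1.16 to 1.06, inside the smallest difference among the 4 genes (-1.65).

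Among genes of precursor transcription, 3 of 8 fell and 0 rose. The gene del (deadlock), whose product works with the HP1-family protein Rhino at germline clusters, read 11.03, 11.31 and 11.18 on the GST arrays and 10.59, 10.54 and 10.39 on the ISWI arrays. It fell by 0.67 (limma adjusted p = 0.000723). The gene kipf, for a zinc finger protein that guides Rhino to chromatin, fell by 0.53 (0.000729), and Trf2, a TBP-related factor gene, by 0.29 (0.0395), a call lost without GST replicate 1, 2 or 3, without ISWI replicate 1 or 2, with no filter on dim probe sets and with a replicate block (adjusted p = 0.0546 to 0.128). The gene of Rhino itself, rhi, differed by 0.12 (adjusted p = 0.339).

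In precursor export, the step of Nxf3, 1 of 6 tested genes fell and 0 rose. This was tho2, for a subunit of the THO complex, at -0.33 (adjusted p = 0.00541). Other tested export genes (Hpr1, thoc5, thoc7, the helicase gene Hel25E and the export receptor gene emb) ran from -0.03 to 0.19 and were not called. The gene of Bootlegger, the partner that brings Nxf3 to precursors, was near 2.5 on both groups' arrays, under the level of detection.

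Among biogenesis genes 5 of 14 fell and 2 rose. SoYb, which encodes a Tudor protein related to Yb, read 7.84, 7.86 and 7.79 on the GST arrays and 6.94, 6.96 and 7.32 on the ISWI arrays and fell by 0.76 (adjusted p = 0.00159). Gasz, for a mitochondrial scaffold protein of piRNA production, fell by 0.47 (0.00558), mino, for a mitochondrial acyltransferase, by 0.37 (0.00645), the co-chaperone gene Stip1 by 0.35 (0.000675) and the helicase gene armi by 0.34 (0.0086).

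The biogenesis gene with the largest difference went the other way from the Argonautes. It was zuc (zucchini), for the endonuclease that cuts precursors into phased piRNAs, at 6.78, 6.91 and 6.84 on the GST arrays and 7.75, 8.03 and 7.93 on the ISWI arrays. All ISWI arrays were above all GST arrays. It rose by 1.06 (standard error 0.10, adjusted p = 0.000133), a 2.09-fold difference. The Tudor protein gene papi rose by 0.30 (0.0208), a call lost without GST replicate 2 (adjusted p = 0.0516), without GST replicate 3 (adjusted p = 0.0794) and with no filter on dim probe sets (adjusted p = 0.0566).

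Of 8 tested ping-pong and nuage genes, for proteins that work beside Aub and AGO3, 1 fell and 1 rose. The nuage gene squ (squash) read 9.91, 9.98 and 9.95 on the GST arrays and 8.91, 8.86 and 8.60 on the ISWI arrays. It fell by 1.16 (adjusted p = 7.04e-05) to 44.8% of the GST value, the largest fall among the other pathway genes. The gene csul, for the arginine methyltransferase PRMT5, which modifies PIWI proteins, rose by 0.25 (0.0106). Tudor-domain and helicase genes of this list (krimp, tapas, tud and spn-E) ran from -0.03 to 0.15 and were not called.

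Nuclear silencing genes, whose products work downstream of Piwi, mostly gave no call. Of 10 tested, Mi-2, a nucleosome remodelling ATPase gene, fell by 0.37 (adjusted p = 0.0159), a call lost without GST replicate 3 (adjusted p = 0.0658). The gene sov, for an HP1a partner, rose by 0.39 (adjusted p = 0.00824). Panx, for the Piwi partner Panoramix, differed by 0.04 and was not called (adjusted p = 0.695).

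**Figure D4:**
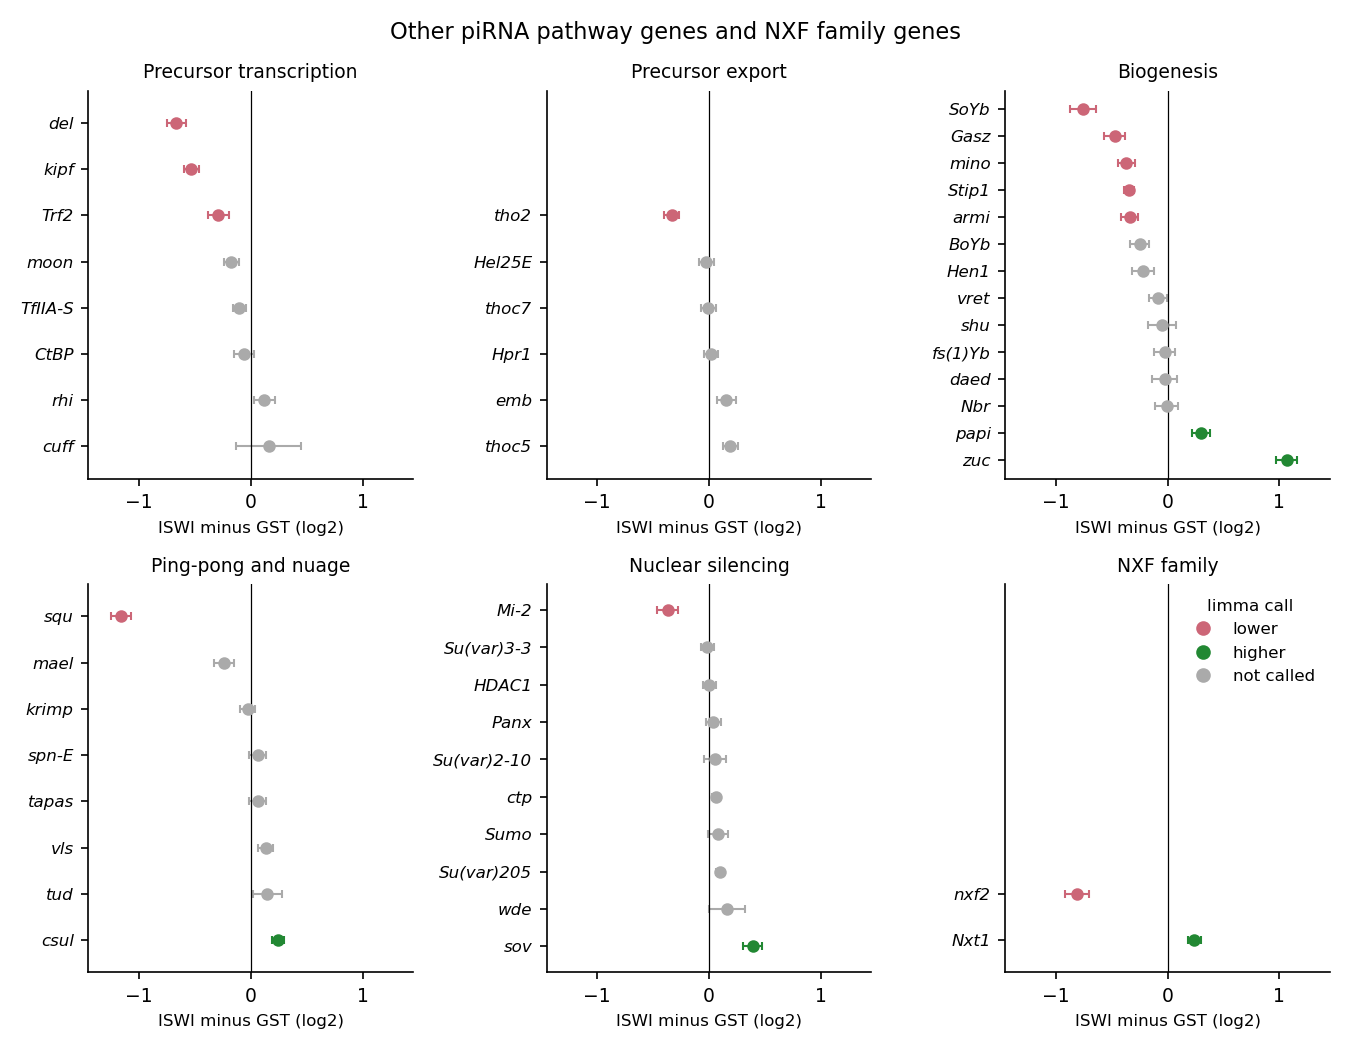
Log2 difference, ISWI minus GST (x axis, point and standard error of the fit), of tested genes (y axis) in 5 piRNA pathway lists and the NXF family, coloured by limma call. The span is -1.16 for squ to 1.06 for zuc, and most points lie near 0.

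The cells carried haemocyte markers in both groups while many markers of germline and gonadal soma were at the floor. All 11 haemocyte markers were tested, with Hml (hemolectin) at 13.68 ± 0.04 in the GST group and 13.76 ± 0.03 in the ISWI group (SD, n = 3). Of the 11, 3 fell and 3 rose (27.3% each way), beside 17.6% lower and 23.4% higher of all tested genes. NimC1, a phagocytosis receptor gene, fell by 0.86 (limma adjusted p = 0.00255). The phagocytosis receptor genes eater and drpr (draper) rose by 0.75 (adjusted p = 0.000153) and 0.51 (adjusted p = 0.000285). The summed haemocyte level (log2 of the sum of unlogged values) was 16.74 to 16.80 on the GST arrays and 16.68 to 16.86 on the ISWI arrays.

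Of 11 germline markers with a probe set, 7 were at or below 4 on every array (nanos, bam, osk, ovo, otu, orb and stil), so piwi, aub and AGO3 were measured in cells without these transcripts at a detectable level. The 3 tested ones were gcl, which rose by 0.59 (adjusted p = 0.00117), Sxl, which fell by 0.69 (adjusted p = 0.00216), and zpg, at 0.02 (adjusted p = 0.887). The remaining one, bgcn, was too dim to be tested. It read 2.52, 2.59 and 2.66 on the GST arrays and 3.45, 3.67 and 4.11 on the ISWI arrays, which lay above all GST arrays. The values of the germline list summed to 10.97 to 11.29 on the GST arrays and 10.71 to 10.86 on the ISWI arrays. Sxl alone made up 61% to 80% of that sum, depending on the array. The sum thus says little about the 7 markers at or below 4. Without Sxl the sum ran the other way, from 8.86 to 9.08 on the GST arrays and from 9.29 to 9.35 on the ISWI arrays. The brightest genes left in it were gcl (means of 7.98 and 8.57) and zpg (7.64 and 7.66), so this rise mostly follows gcl. The part of germline transcripts in the lower Argonaute values was not tested.

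Of 7 gonadal soma markers, 5 were at or below 4 throughout, among them tj (traffic jam), a transcription factor gene of the somatic gonad, at 2.14 in the GST group and 2.13 in the ISWI group. Those tested, zfh1 and fs(1)Yb, gave no call. The list summed to 11.99 to 12.30 on the GST arrays and 11.87 to 12.17 on the ISWI arrays. Of this sum zfh1 alone made up 92.1% to 94.4%, so it says little about the 5 markers at or below 4. The part of such cells in the lower values of piwi, aub, AGO3 and Nxf3 was not tested beyond these levels.

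**Figure D5:**
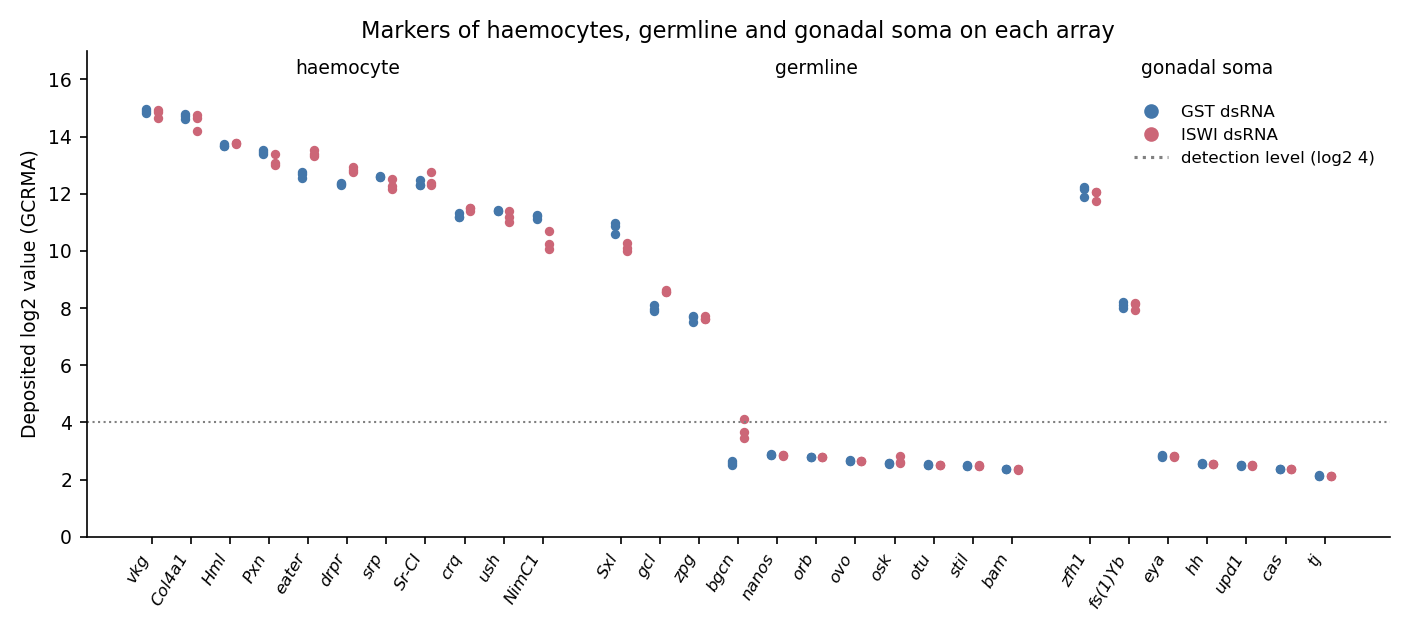
Deposited log2 value on each array (y axis) of markers of haemocytes, germline and gonadal soma (x axis, 1 probe set a gene), GST arrays in blue and ISWI arrays in red, with the level of 4 dotted. Haemocyte markers lie above 10 on every array, and 7 germline and 5 gonadal soma markers lie below 4 on every array.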

How the data were processed

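RNA from 3 GST and 3 ISWI cultures was measured on 1 array each, grouped by title. The values are the authors' deposited log2 values per probe set. Per the submitters' processing notes they come from GCRMA, which in general corrects background, normalizes by quantiles and summarises probes. Its version and the array scanner are not given in the sources used here. Such processing removes any global shift of RNA content and holds undetected transcripts at a floor.

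Control probe sets (183 of 18952) were left out. Of the rest, 13646 had 1 symbol, 402 several and 4721 none in the annotation, and symbols were updated through a Release 6 RefSeq gene table. A two-sided moderated test with an intensity trend (limma 3.58.1, R 4.3.3) was fitted to 7390 probe sets above 4 on at least 3 arrays, a level chosen and not measured. Each gene was represented by its brightest tested probe set. The fit was tested on simulated data in which a small part of the probe sets was changed by at least 1 log2 unit. Smaller differences, such as most of those called here, were not simulated. Array number limits the precision.

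The members and lists were chosen with earlier results of these data known. Named were the 4 genes, Iswi, their relatives, Nxt1 and the called genes of each pathway list (at most 6 by adjusted p). Called neighbours and the 4 nearest profiles per gene were also named. The marker and uncalled genes named beside them were picked after their values were seen. Lists covered precursor transcription, precursor export, biogenesis, ping-pong and nuage, nuclear silencing, the NXF family, other Argonautes, and haemocyte, germline and gonadal soma markers. Alternatives were other filters, centring, quantile normalization again, no trend, array weights, a replicate block and leaving out each array. Transposon probe sets and promoter motifs were planned but not analysed here, and sequences are not shown.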

Additional observations from a re-analysis of the deposited data

How the results depend on the processing

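The log2 differences of piwi, aub, AGO3 and Nxf3 kept their sign under all 13 alternative settings. They moved by less than the gene's pooled SD (the root mean square of its 2 group SDs, 0.08 for aub to 0.49 for Nxf3). Most settings could not have given otherwise. Filters, trend and replicate block leave the difference itself unchanged. Leaving out 1 of 3 arrays cannot exceed the pooled SD or reverse groups that do not overlap. Under centring, quantile normalization again and array weights the values farthest from the main fit were -2.29 for piwi, -1.68 for aub, -2.04 for AGO3 and -2.56 for Nxf3. Nxf3 moved farthest, to -2.84 without GST replicate 3, which is more than its ISWI group's SD of 0.21. Without single arrays they ran from -2.34 to -2.21 for piwi, -1.68 to -1.60 for aub, -2.18 to -1.85 for AGO3 and -2.84 to -2.25 for Nxf3. Iswi stayed called, at -3.10 to -2.81. The pathway gene count of 15 was 13 without the filter on dim probe sets, 19 with quantile normalization applied again and 12 to 17 without single arrays. The count of 7 called neighbours was 3 without the filter, 4 without the intensity trend and 2 to 4 without single arrays. Nxt1 lost its call without GST replicate 1, with values of 0.19 to 0.27 over the single arrays left out. Of 22 named pathway and neighbouring genes, 14 stayed called under all alternatives and 0 changed sign. The cause of lost calls was not tested, although leaving out an array also leaves fewer samples. The sample titles number the replicates but do not say whether same-numbered cultures were paired. Over the tested probe sets, deviations of same-numbered arrays correlated at -0.18, 0.12 and 0.06, which cannot decide it. A block for replicate number changed the standard error from 0.17 to 0.10 for AGO3 and from 0.30 to 0.21 for Nxf3. For piwi it went from 0.09 to 0.08, and for aub it was 0.07 under both. With replicate number as a block, 2808 probe sets were called against 2974, and 14 pathway genes and 5 neighbours. The values at the level of 4 or below, among them 1 Nxf3 probe set, are limited by signal over background.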
